A study of Mus musculus with 3 samples.

Results

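Hox cluster genes were examined in 3 sorted populations of mouse endosteal cells, which line the inside of bone. Members were all genes whose probe set on the array carries 1 gene symbol and whose symbol names a numbered gene of the HoxA, HoxB, HoxC or HoxD cluster. This gave 33 of 18193 named genes, with 9 in HoxA, 9 in HoxB, 7 in HoxC and 8 in HoxD. A gene was read from its brightest probe set, the one with the highest mean over the 3 arrays. The cells came from thigh and shin bones of C57BL/6 mice, were freed with collagenase, and lacked CD45, CD31 and Ter119, the surface markers of blood, endothelial and red cells. The sort used Sca-1, a surface antigen of progenitors, and the adhesion molecule ALCAM. The populations were ALCAM+ Sca-1- cells (here ALCAM+), ALCAM- Sca-1+ cells (here Sca-1+) and ALCAM- Sca-1- cells (here double-negative), with 1 array for each. Ages, sexes and the number of mice behind each sort are not given in the sources used here.

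Hox genes encode homeodomain transcription factors that give body segments and limb segments their identity in the embryo. The genes lie in 4 clusters on separate chromosomes, and genes of the same number in different clusters are paralogs with closely related proteins. Low-numbered (anterior) genes act toward the head and high-numbered (posterior) genes toward the tail and, in HoxA and HoxD, toward the tip of the limb. Connective tissue and bone cells of adults keep part of the embryonic Hox pattern of the place they came from, and blood progenitors use some of the same genes.

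Neighbouring genes of the HoxD cluster, Hoxd9 and Hoxd8, were the Hox genes most raised in Sca-1+ cells, whereas Hoxd10, the next gene on the posterior side, stayed below the detection floor on every array. Their promoters are shown for that reason. The windows are the 250 bases before each gene's start in RefSeq, build GRCm38.p6, plus strand, at chr2:74691641-74691890 for Hoxd10, chr2:74697513-74697762 for Hoxd9 and chr2:74704365-74704614 for Hoxd8. Capitals mark matches to any of 5 letter motifs, searched on both strands.
Hoxd10: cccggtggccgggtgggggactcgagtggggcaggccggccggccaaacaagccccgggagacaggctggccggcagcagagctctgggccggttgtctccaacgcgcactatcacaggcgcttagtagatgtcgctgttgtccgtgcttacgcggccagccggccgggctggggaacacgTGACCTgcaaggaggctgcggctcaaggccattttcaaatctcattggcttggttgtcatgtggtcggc
Hoxd9: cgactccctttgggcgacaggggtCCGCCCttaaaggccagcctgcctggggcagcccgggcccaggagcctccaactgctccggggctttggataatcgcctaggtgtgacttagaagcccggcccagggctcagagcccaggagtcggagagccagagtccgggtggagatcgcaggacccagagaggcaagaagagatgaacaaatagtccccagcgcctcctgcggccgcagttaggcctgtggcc
Hoxd8: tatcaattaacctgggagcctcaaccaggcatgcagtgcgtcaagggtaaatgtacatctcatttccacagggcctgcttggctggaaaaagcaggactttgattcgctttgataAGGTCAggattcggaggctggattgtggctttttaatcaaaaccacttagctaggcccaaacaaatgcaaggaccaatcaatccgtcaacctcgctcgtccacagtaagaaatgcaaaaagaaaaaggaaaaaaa

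The motifs were AGGTCA, bound by retinoic acid receptors, found in 14.0% of all 32851 promoter windows of this length; GGGCGG, bound by Sp1, in 32.7%; the CDX-type TTTATG in 10.8%; the PBX-HOX type TGATNNAT in 7.68%; and TATAAA in 12.4%. AGGTCA occurred once before Hoxd10, on the minus strand, and once before Hoxd8, on the plus strand. GGGCGG occurred once before Hoxd9, on the minus strand, so no matches overlapped. None of the other motifs was found in these 3 windows. A letter match describes the sequence and is no binding site. The windows held 20 CpG pairs before Hoxd10, 13 before Hoxd9 and 6 before Hoxd8. The median was 12.5 over 24 windows of 22 Hox genes that the table listed, and 6 over all windows.

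Signals are MAS5 values, an arbitrary linear unit of probe-set brightness, and a difference is the log2 of the ratio of 2 arrays for the same probe set. Values were first raised to a floor of 75.4, the median of all non-control probe sets, and a gene is called measured if it lay above that floor on at least 1 array. Of 33 Hox genes 16 were measured, or 48.5%, against 69.5% of all named genes. Among 70 olfactory and vomeronasal receptor genes, which bone cells are not known to use, 3 were above the floor, or 4.29%. With 1 array per population there are no replicates, so no difference below has a test or a p-value. As a measure of disagreement between probe sets, the SD of a log2 difference was estimated from 525 dim genes with a second probe set above the floor. It was 0.45 for ALCAM+ against double-negative, 0.51 for Sca-1+ against double-negative and 0.55 for ALCAM+ against Sca-1+ cells. This SD does not cover error shared by all probe sets of an array, such as scaling. Nor does it cover variation from sort to sort or from mouse to mouse.

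The 3 arrays shared a scale, with a 2% trimmed mean of 500.0 on each, and the ratio of 3' to 5' control signal was 2.55 to 2.77 for Actb and 3.75 to 3.96 for Gapdh. Alcam, the sorting gene, had a signal of 268 in ALCAM+, 41.1 in Sca-1+ and 36.3 in double-negative cells. The CD31 gene Pecam1 never passed the floor, and the CD45 gene Ptprc had 11.6, 163 and 159. Osteoblast markers were dimmest in Sca-1+ cells, with signals summed over 5 genes of 122462 in ALCAM+, 8588 in Sca-1+ and 45348 in double-negative cells. Fibroblast and progenitor markers were bright in Sca-1+ cells. Markers of red cell precursors were brightest in double-negative cells, with sums over 8 genes of 426, 334 and 17489. In a bulk sort, fewer cells that express a gene and less of its RNA per cell cannot be told apart.

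At the floor of 75.4, the Hox genes that could be detected lay mostly in HoxA and HoxC in all 3 populations. Above the floor were 15 Hox genes in ALCAM+, 14 in Sca-1+ and 13 in double-negative cells, or 45.5%, 42.4% and 39.4% of members, against 61.0%, 61.0% and 63.2% of all named genes. Of these, 13 genes were above it in all 3 populations: Hoxa3, Hoxa5, Hoxa9, Hoxa10, Hoxa11, Hoxb2, Hoxc4, Hoxc5, Hoxc6, Hoxc8, Hoxc9, Hoxc10 and Hoxd8. The remaining 3 were above it on 1 array each, Hoxa13 and Hoxb3 in ALCAM+ and Hoxd9 in Sca-1+ cells. By cluster, 6 of 9 HoxA, 2 of 9 HoxB, 6 of 7 HoxC and 2 of 8 HoxD genes were measured. By position, 3 of 7 anterior genes (numbers 1 to 3), 6 of 12 central genes (4 to 8) and 7 of 14 posterior genes (9 to 13) were measured. The contrast between clusters depends on the floor. With a floor at the 25th percentile (21.1) 26 Hox genes were measured, with Hoxb1, Hoxb4, Hoxb6, Hoxb7, Hoxd3, Hoxd10 and Hoxd13 among them.

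**Figure D1:**
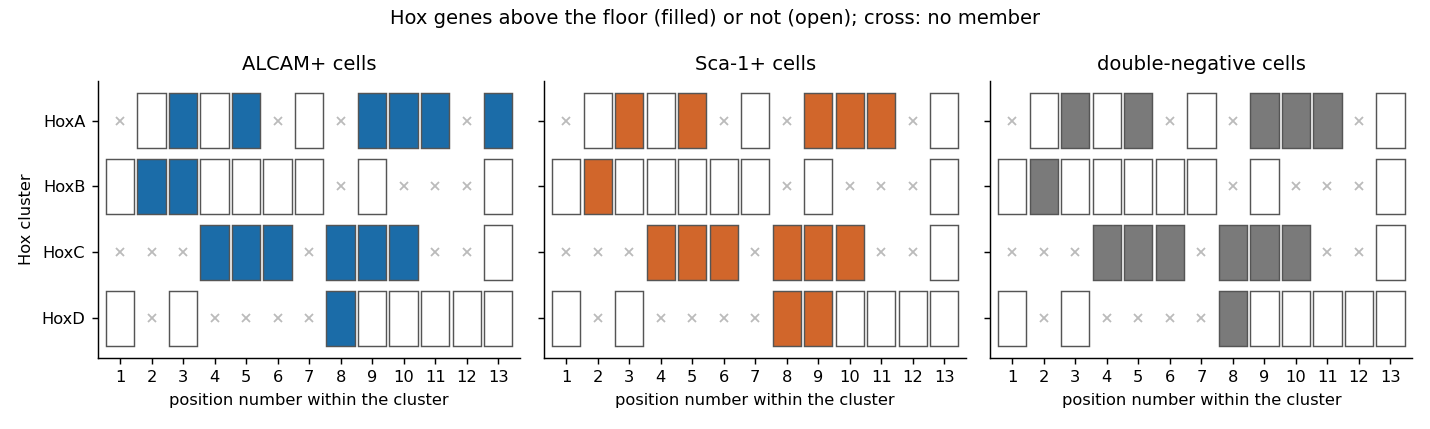
Hox genes by cluster (rows) and position number (columns) in each population; a filled box is a gene above the floor of 75.4, an open box a gene at or below it, and a cross a position without a member, either because the mouse has no such gene or because it is not analysed here. Filled boxes run through HoxC from position 4 to 10 in all 3 panels, HoxB is nearly empty, and Hoxd9 is filled only in the Sca-1+ panel.

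The 17 genes never above the floor were Hoxa2, Hoxa4, Hoxa7, Hoxb1, Hoxb4, Hoxb5, Hoxb6, Hoxb7, Hoxb9, Hoxb13, Hoxc13, Hoxd1, Hoxd3, Hoxd10, Hoxd11, Hoxd12 and Hoxd13. Their brightest single value was 69.0, for Hoxd3 in Sca-1+ cells, where ALCAM+ cells had 1.90 and double-negative cells 32.1. Hoxa2 was also under the floor, with 54.8 in ALCAM+, 68.7 in Sca-1+ and 51.4 in double-negative cells. Hoxb4, a gene that expands blood stem cells when overexpressed, had 61.5, 44.9 and 50.8. Hoxd11, Hoxd12 and Hoxd13, which shape the distal limb in the embryo, reached at most 28.6 on any array. A further 3 probe sets carry the symbols of 2 Hox genes each (Hoxd3 with Hoxd4, Hoxb7 with Hoxb8) and were not used. Their signals were at most 42.5.

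In HoxA, 0 of the 6 measured genes were called 2-fold apart in any comparison, although for Hoxa13 the values allow a bound only. Over all measured genes 6.68% to 15.8% were 2-fold apart in a given direction and comparison, so 0 among 6 says little. It also rests on the scaling. For ALCAM+ against Sca-1+ cells the poly-A and hybridization control scalings gave log2 differences of -1.63 and -1.56 for Hoxa9. They gave -1.26 and -1.19 for Hoxa10 and -1.77 and -1.69 for Hoxa11. The median of all genes was then -0.78 and -0.72. Hoxa9, a posterior gene best known from blood progenitors and leukaemia, had a signal of 1531 in ALCAM+, 2660.4 in Sca-1+ and 1906 in double-negative cells. It was highest in Sca-1+ cells, with log2 differences of 0.48 against double-negative cells and, for ALCAM+ against Sca-1+ cells, of -0.80. Its other probe set ordered the populations the opposite way, with 239.7, 175.0 and 208, so the direction rests on the probe set chosen. Signals of 8 markers of blood stem and progenitor cells, which also use Hoxa9, summed to 236 in ALCAM+, 1052 in Sca-1+ and 1837 in double-negative cells. The markers did not move together. Of 6 measured, 1 (Mecom, at 687) was 4-fold or more higher in Sca-1+ than in double-negative cells. Another 2 (Myb and Gfi1b) were lower, against 5.46% and 4.71% of all measured genes. The part of these markers in the Hoxa9 signal was not tested.

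Hoxa10, of the paralog group that patterns the upper hind limb, had 331 in ALCAM+, 445 in Sca-1+ and 247 in double-negative cells. Both sorted-positive populations were above double-negative cells, by 0.42 and 0.85. Under the poly-A and hybridization control scalings the first of these turned to -0.11 and -0.04 and the second became 1.15 in both. Hoxa11, a determinant of the middle limb segment that holds the shin bone, had 170.3 in ALCAM+, against 325 in Sca-1+ and 323 in double-negative cells. ALCAM+ cells were lower than both, by log2 differences of -0.93 and -0.92, beside probe-set SDs of 0.55 and 0.45. The difference from double-negative cells was -1.46 and -1.39 under the poly-A and hybridization control scalings. The antisense gene Hoxa11os, which lies beside Hoxa11, had 67.7, 104 and 87.2, under the floor in ALCAM+ cells. Whether their probe sets share sequence was not tested.

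Hoxa13, which patterns hand and foot, was above the floor only in ALCAM+ cells, at 94.5 against 26.0 in Sca-1+ and 31.7 in double-negative cells. Against the floor this is at least 1.25-fold. Hoxa5, a central gene, had 338 in ALCAM+, 212 in Sca-1+ and 335 in double-negative cells, and its second probe set was flatter, with 155, 135 and 133. Hoxa3 was dim everywhere, with 119.5, 81.6 and 100.1, and its 3 other probe sets were below the floor on all arrays. Its difference for ALCAM+ against Sca-1+ cells, 0.55, turned to -0.29 and -0.21 under the poly-A and hybridization control scalings.

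**Figure D2:**
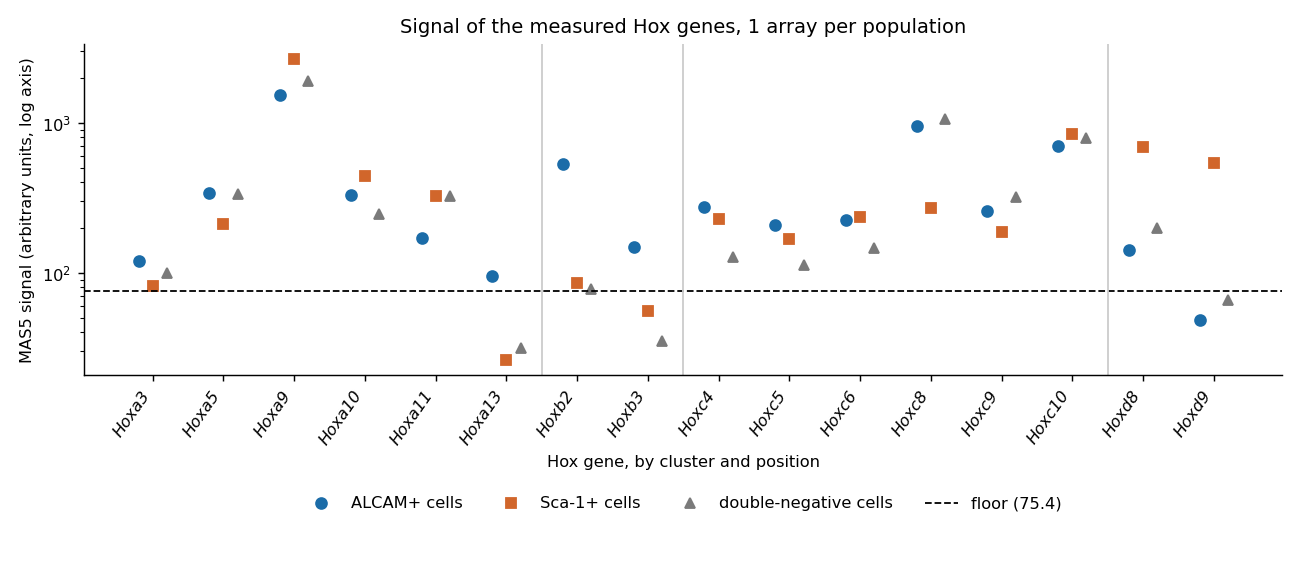
MAS5 signal (log axis) of the 16 measured Hox genes by cluster and position, 1 point for each array of ALCAM+ (circles), Sca-1+ (squares) and double-negative cells (triangles); the dashed line is the floor of 75.4. Points of a gene can be compared with each other, points of different genes cannot; among genes above the floor on all 3 arrays, those of Hoxb2, Hoxd8 and Hoxc8 lie widest apart.

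The only HoxB genes above the floor were Hoxb2 and Hoxb3, anterior neighbours on chromosome 11, and both were highest in ALCAM+ cells. Hoxb3 passed the floor in ALCAM+ cells only. As a measured gene it thus had to be highest there, and it adds no support to the Hoxb2 pattern. Hoxb2, known for patterning the hindbrain, had a signal of 533 in ALCAM+, 84.9 in Sca-1+ and 77.6 in double-negative cells. ALCAM+ cells were thus 6.87-fold above double-negative and 6.28-fold above Sca-1+ cells, while Sca-1+ and double-negative cells differed by 0.13 on the log2 scale. The lower values lie close to the floor of 75.4, so both folds are uncertain and the 0.13 carries little information. With the floor at the 75th percentile both ALCAM+ log2 differences were 0.30. Hoxb2 has 1 probe set here, so no second reading exists. Under the poly-A and hybridization control scalings its log2 difference from Sca-1+ cells was 1.81 and 1.89, below the 4-fold mark of 2, while the difference from double-negative cells stayed above it at 2.25 and 2.32. Hoxb3 had 147.5 in ALCAM+ cells, against 55.9 in Sca-1+ and 34.9 in double-negative cells, which is at least 1.96-fold. Its second probe set was below the floor on all arrays, with 39.0, 31.1 and 25.6. The neighbours Hoxb1 (16.9, 44.9 and 50.6) and Hoxb4 (61.5, 44.9 and 50.8) were below the floor on every array, so their order cannot be read.

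HoxC did not show 1 common pattern. Its 3 lowest-numbered members here, Hoxc4, Hoxc5 and Hoxc6, were higher in both sorted-positive populations than in double-negative cells. Hoxc8 and Hoxc9 were lower in Sca-1+ than in double-negative cells, while Hoxc10 differed by 0.09 on the log2 scale. These groups were set apart in different comparisons, so a division by position cannot be read from them. Hoxc4 had a signal of 273 in ALCAM+, 229 in Sca-1+ and 126 in double-negative cells, or log2 differences of 1.11 and 0.86 from the last. Hoxc5 had 208, 167 and 112 (0.90 and 0.58), and its 2 other probe sets were below the floor. Hoxc6 had 226, 236 and 145.5 (0.63 and 0.70). A second Hoxc6 probe set ran the same way, at 207, 226 and 105, but the third did not, at 103, 38.6 and 132. Each of these differences lies within 3 times the probe-set SD. The signs for ALCAM+ against double-negative cells were kept under all 3 other scalings, with the Hoxc6 difference as low as 0.10.

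Hoxc8, a central gene of trunk and limb mesenchyme, had 948 in ALCAM+ cells, 268 in Sca-1+ cells and 1052 in double-negative cells. Sca-1+ cells stood apart, 3.92-fold below double-negative cells, just short of the 4-fold mark, and ALCAM+ cells were 3.53-fold above Sca-1+ cells. On the log2 scale the second difference is 1.82, and it was 0.98 and 1.06 under the poly-A and hybridization control scalings, the first of which is under 2-fold. Chondrocyte markers moved with Hoxc8: all 7 were 4-fold or more lower in Sca-1+ than in double-negative cells, against 4.71% of all measured genes. Their signals summed to 167179 in ALCAM+, 4260 in Sca-1+ and 138922 in double-negative cells. Above the floor were 7 of these markers in ALCAM+, 6 in Sca-1+ and 7 in double-negative cells, beside 61.0%, 61.0% and 63.2% of all named genes. Their part in the Hoxc8 and Hoxc9 signals was not tested. Hoxc9 had 256 in ALCAM+, 186 in Sca-1+ and 319.5 in double-negative cells, with a difference of -0.78 for Sca-1+ against double-negative cells. Which of ALCAM+ and Sca-1+ cells had less Hoxc9 depends on the scaling: the difference for ALCAM+ against Sca-1+ cells was 0.46, but -0.37 and -0.30 under the poly-A and hybridization control scalings. On the scale used here, Hoxc10, a gene of the hind limb field, was the most even measured member of the cluster. It had 699, 844 and 791 and no log2 difference beyond 0.27 in size. On that scale, neighbours on chromosome 15 therefore ranged from near equality to almost 4-fold in the same pair of populations. Under the poly-A and hybridization control scalings the Hoxc10 difference for ALCAM+ against Sca-1+ cells was -1.11 and -1.04, beyond 2-fold. For ALCAM+ against double-negative cells it was -0.71 and -0.64.

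In HoxD only Hoxd8 and Hoxd9, neighbours on chromosome 2, were measured, and both were highest in Sca-1+ cells. Hoxd9 passed the floor in Sca-1+ cells only. As a measured gene it thus had to be highest there, and it adds no support to the Hoxd8 pattern. Hoxd9, which acts with its paralogs in the upper limb segment, had 48.7 in ALCAM+, 541 in Sca-1+ and 65.5 in double-negative cells. Both of the lower values lie under the floor, so Sca-1+ cells were at least 7.18-fold above either. Hoxd9 has 1 probe set, and its call at 4-fold held under all 3 other scalings. Hoxd8 had 142 in ALCAM+, 688 in Sca-1+ and 198 in double-negative cells. Sca-1+ cells were 3.47-fold above double-negative cells, and ALCAM+ cells were lower than Sca-1+ cells by a log2 difference of -2.28. The second Hoxd8 probe set, with a mean of 342.4 against 342.5 for the one used, also peaked in Sca-1+ cells, at 536, against 272 in ALCAM+ and 220.1 in double-negative cells. Its differences were smaller, 1.28 and -0.98, so the 4-fold call for Hoxd8 is lost with that probe set while Sca-1+ cells stay highest. For ALCAM+ against double-negative cells the 2 probe sets differ in sign, with -0.49 and 0.30.

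**Figure D3:**
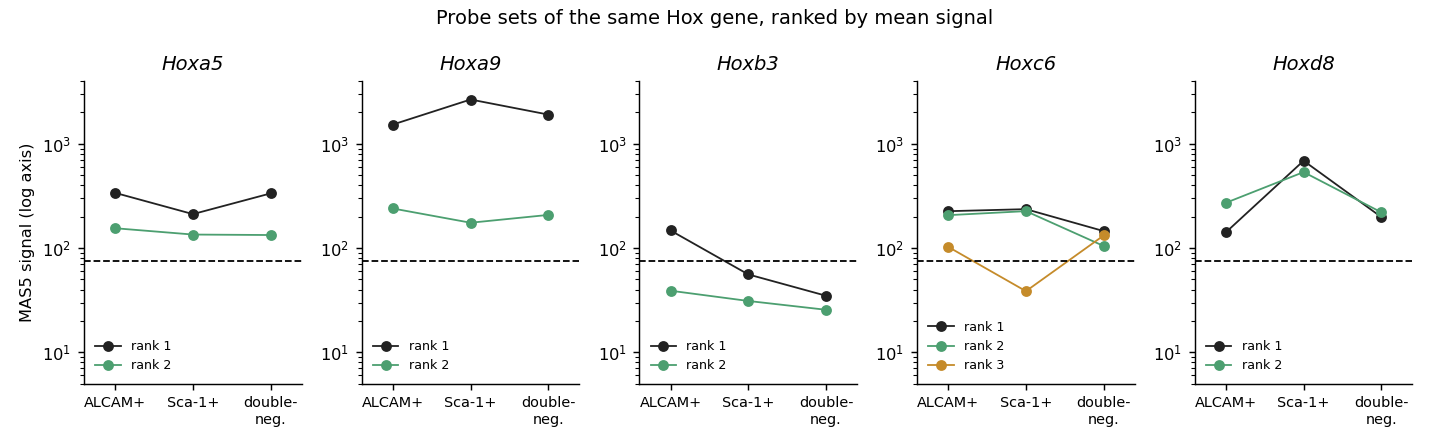
MAS5 signal (log axis) of every probe set of Hoxa5, Hoxa9, Hoxb3, Hoxc6 and Hoxd8 in the 3 populations, ranked by mean signal, with the floor dashed. Both Hoxd8 probe sets peak in Sca-1+ cells, at 688 and 536, while the 2 Hoxa9 probe sets and the third of Hoxc6 run against each other.

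Of the analysed HoxD genes on either side of Hoxd9 and Hoxd8, none passed the floor, so whether they share the pattern cannot be read. Hoxd10 had 16.7 in ALCAM+, 33.9 in Sca-1+ and 36.3 in double-negative cells. On the anterior side Hoxd3 had 1.90, 69.0 and 32.1, and Hoxd1 had 4.30, 7.70 and 19.8. The long noncoding gene Hoxd3os1 was close to the floor, with 78.9, 100.5 and 30.7, its highest value being that of Sca-1+ cells. Outside the cluster, Mtx2 had 825, 785 and 686, and Lnpk 301, 319 and 382. Of 21 flanking or noncoding genes of the 4 clusters, 17 were measured and 0 were 4-fold apart in any of the 3 comparisons. Over all measured genes, 2.01% to 5.86% were 4-fold apart in a given direction and comparison. Taken per direction and comparison, each count of 0 among 17 is near that share.

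The Hoxd8 peak moved with the fibroblast and progenitor markers of the Sca-1+ sort, while neutrophil markers were split. Hoxd9, which passed the floor in Sca-1+ cells only, had to peak there and adds no support to this. All 7 fibroblast and progenitor markers with a probe set were 4-fold or more higher in Sca-1+ than in double-negative cells. The share of all measured genes was 5.46%. Signals of these markers summed to 5920 in ALCAM+, 105742 in Sca-1+ and 3112 in double-negative cells. Of 7 neutrophil markers 5 were higher by 4-fold or more in Sca-1+ than in double-negative cells and 2, Mpo and Elane, lower. Over all measured genes these shares were 5.46% and 4.71%. Signals of the neutrophil markers summed to 383, 14476 and 2952. Of the 7 fibroblast and progenitor markers 4 were above the floor in ALCAM+, 7 in Sca-1+ and 5 in double-negative cells. For the 7 neutrophil markers these counts were 2, 6 and 5, beside 61.0%, 61.0% and 63.2% of all named genes. The part of both marker lists in the Hoxd8 and Hoxd9 signals was not tested. Of the 5 osteoblast markers 1 was 4-fold or more higher in ALCAM+ than in double-negative cells, against 2.01% of all measured genes. A count of 1 is no result about the list. The summed signal of these markers, given above, was highest in ALCAM+ cells as Hoxb2 was. Their part in the Hoxb2 signal was not tested.

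Few of the 16 measured Hox genes passed 4-fold in any comparison. For ALCAM+ against double-negative cells, 1 gene (Hoxb2) was at least 4-fold higher and 0 lower, against 2.01% and 2.67% of 12643 measured genes. At 2-fold these counts were 2 (with Hoxc4) and 0, against 6.68% and 10.6%. For Sca-1+ against double-negative cells, 1 (Hoxd9) was at least 4-fold higher and 0 lower, against 5.46% and 4.71%. At 2-fold they were 2 (with Hoxd8) and 1 (Hoxc8), against 15.0% and 12.7%. For ALCAM+ against Sca-1+ cells, 1 (Hoxb2) was at least 4-fold higher and 2 (Hoxd8, Hoxd9) lower, against 3.99% and 5.86%. At 2-fold they were 2 (with Hoxc8) and 2, against 11.2% and 15.8%. A single gene is 6.25% of 16, and counts of 1 or 2 are no result about Hox genes as a group.

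Median log2 differences of the 16 Hox genes were 0.14 for ALCAM+ against double-negative, 0.11 for Sca-1+ against double-negative and 0.29 for ALCAM+ against Sca-1+ cells, beside -0.03, 0.00 and -0.01 over all measured genes. The last comparison uses the same arrays as the others and adds no measurement. Scaling on the poly-A controls moved the median of all genes to -0.49, 0.25 and -0.78 and that of Hox genes to -0.11, 0.40 and -0.52. With the floor at the 25th percentile, 26 Hox genes were measured and their medians were -0.10, 0.15 and -0.14, beside -0.04, -0.02 and 0.00 over all genes, so the place of the Hox median above or below that of all genes depends on the floor. These medians include Hoxa13, Hoxb3 and Hoxd9, which passed the floor only through the population where they are high, so they are a description of the measured genes and support no direction. With 2 measured genes each in HoxB and HoxD, one of them such a gene, medians by cluster or position are not given.

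**Figure D4:**
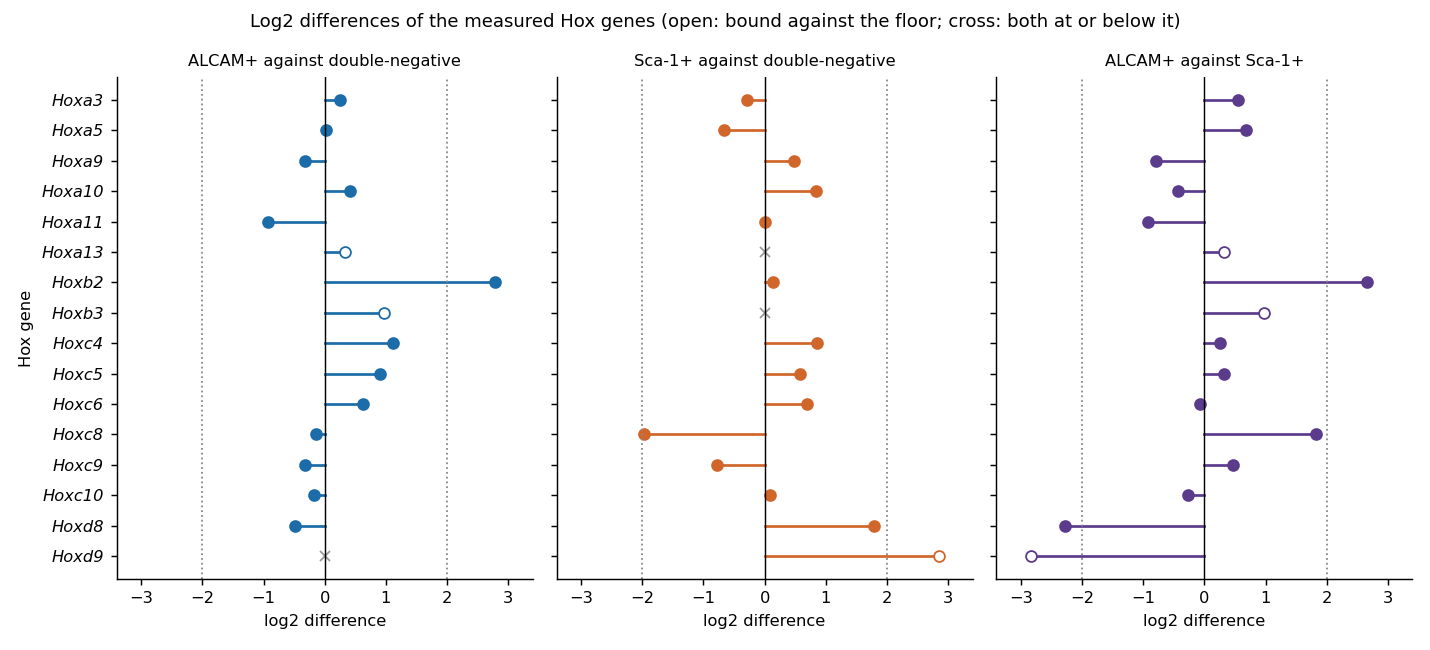
Log2 differences of the 16 measured Hox genes in the 3 comparisons, each axis from -3.4 to 3.4; filled points are measured on both arrays, open points are bounds against the floor, crosses mark genes at or below it on both arrays, and dotted lines mark 4-fold. Hoxb2 passes 4-fold in both ALCAM+ comparisons, Hoxd9 in both Sca-1+ comparisons and Hoxd8 against ALCAM+ cells only.

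Hox proteins bind DNA together with TALE homeodomain cofactors of the Meis, Pbx and Pknox families. Of 8 such genes with a probe set 7 were measured, and 2, Meis1 and Meis2, were higher by 4-fold or more in Sca-1+ than in double-negative cells, against 5.46% of all measured genes. The fibroblast and progenitor markers and 5 of the 7 neutrophil markers given above were also higher in Sca-1+ than in double-negative cells. The part of these markers in the Meis1 and Meis2 signals was not tested. Meis1 had 225 in ALCAM+, 647.5 in Sca-1+ and 60.0 in double-negative cells, at least 8.59-fold for Sca-1+ and at least 2.98-fold for ALCAM+ cells. Its other probe set above the floor gave a smaller difference for Sca-1+ cells, 1.33, and -0.15 for ALCAM+ cells. Meis2 had 132, 809 and 91.7, or 8.82-fold for Sca-1+ against double-negative cells, and its 3 other probe sets above the floor gave 2.63, 1.55 and 0.70. Pknox2 had 71.4 in ALCAM+, 596 in Sca-1+ and 283 in double-negative cells, at least 7.90-fold lower in ALCAM+ than in Sca-1+ cells. Meis3 also peaked in Sca-1+ cells, with 206, 317.5 and 121. Pbx2 (365, 262 and 321), Pbx3 (778, 509.5 and 408) and Pknox1 (636, 516 and 663) did not differ 2-fold between any populations. Pbx4 was below the floor throughout. For ALCAM+ against double-negative cells 0 of the 7 were 4-fold apart, near the 2.01% higher and 2.67% lower of all measured genes.

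Polycomb proteins keep Hox genes silent and Trithorax proteins keep them active. All 22 genes of this list with a probe set were measured, and 20 of them stayed within 4-fold in all comparisons. For ALCAM+ against double-negative cells 0 were 4-fold apart. For Sca-1+ against double-negative cells 1 was higher and 1 lower, and for ALCAM+ against Sca-1+ cells 1 was lower. Over all measured genes 2.01% to 5.86% were 4-fold apart per direction and comparison, so such counts are no result about the list. Ezh2, the main Polycomb methyltransferase gene, had 594 in ALCAM+, 364 in Sca-1+ and 1679 in double-negative cells, 4.62-fold lower in Sca-1+ and 2.83-fold lower in ALCAM+ than in double-negative cells. Suz12, its partner, had 484, 509.6 and 1113. Cbx7, a reader of the Polycomb mark, had 50.8, 328 and 66.2, with Sca-1+ cells at least 4.34-fold above double-negative cells. Bmi1 was highest in ALCAM+ cells, at 4002, against 2007 in Sca-1+ and 2044 in double-negative cells. Kmt2a, the Trithorax gene whose fusions drive Hoxa9 in leukaemia, had 510.5, 734 and 593, and its second probe set gave a wider difference for ALCAM+ against Sca-1+ cells, -1.25 against -0.52. The red cell markers, higher in double-negative cells as given above, moved with Ezh2 and Suz12, and their part in it was not tested.

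Among 12 upstream regulators with a probe set 7 were measured. Aldh1a2, which makes retinoic acid, an inducer of Hox genes, had 9.10 in ALCAM+, 851 in Sca-1+ and 60.0 in double-negative cells, with Sca-1+ cells at least 11.3-fold above both others. The retinoid receptor gene Rarg was even, with 1849, 1698 and 2021.5. Cyp26b1, which breaks retinoic acid down, had 258, 546 and 627. Gmnn, whose product geminin binds Hox proteins and blocks replication licensing, had 206 in ALCAM+, 155 in Sca-1+ and 1821 in double-negative cells, 8.83-fold and 11.8-fold lower than in double-negative cells. The caudal genes Cdx1, Cdx2 and Cdx4, early activators of posterior Hox genes, were below the floor on all arrays.

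**Figure D5:**
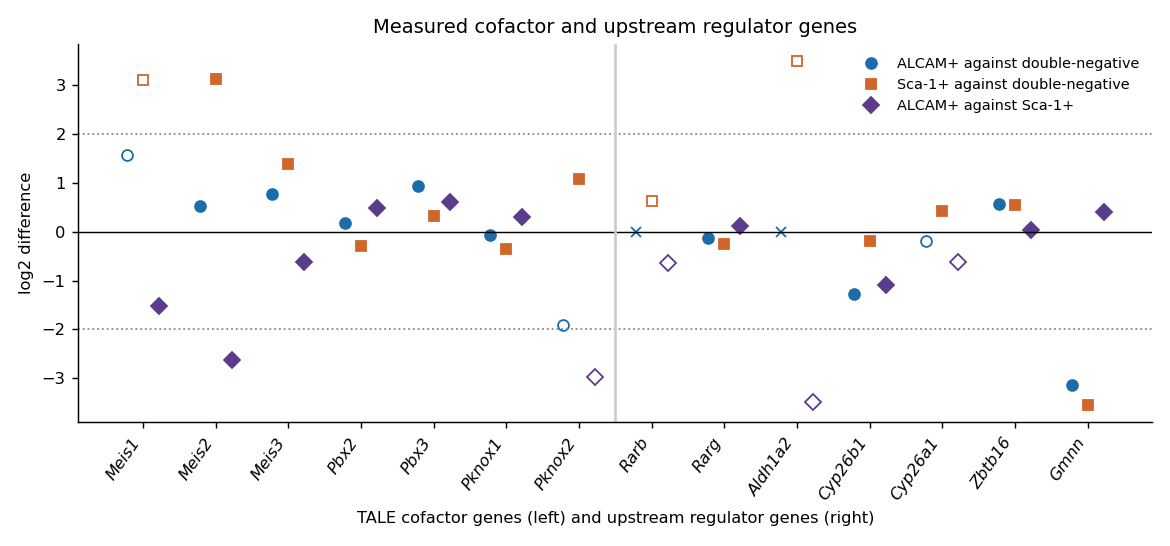
Log2 differences of the measured TALE cofactor genes (left of the grey line) and upstream regulator genes (right) in the 3 comparisons; open symbols are bounds against the floor, crosses mark genes at or below it on both arrays, and dotted lines mark 4-fold. Meis1, Meis2 and Aldh1a2 lie above the upper line for Sca-1+ against double-negative cells, and Gmnn lies below the lower line for both populations.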

How the data were processed

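Deposited values of 3 arrays, 1 per population, were analysed, each array being assigned to its population by its title. Per the labels' protocols, TRIzol RNA was labelled with biotin in a 2-cycle assay, which amplifies RNA and favours 3' ends. The authors' values are MAS5 signal intensities of 45101 probe sets on a linear scale, per the submitters' processing notes, with the software release not stated there. The 2% trimmed mean was 500.0 on each array, so no further scaling was applied; such scaling hides differences in RNA per cell. Of the probe sets, 64 were controls, 34958 had 1 gene symbol and 932 had several and were not used. Symbols were checked through gene identifiers in RefSeq (GRCm38.p6), which changed 0.

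Signals were raised to the floor of 75.4, the pooled median of non-control probe sets, and turned to log2. Each gene was read from its brightest probe set. A fold with the dimmer value at or below the floor is given against the floor as a lower bound. Single arrays allow no test, and their number limits the precision. The probe-set SD is the SD of the difference between 2 probe sets of a gene, divided by the square root of 2. Python 3.11.15, pandas 2.3.3 and numpy 2.4.6 were used, and the code was tested on simulated data.

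Members, gene lists, the design and the alternatives were chosen with earlier results of these data known. All Hox members may be named; of other lists, members at least 4-fold apart and up to 6 defining genes per list. Hoxa11os, Hoxd3os1, Mtx2 and Lnpk were named after their values were seen, as neighbours of the members described. Alternatives were 3 other floors, quantile normalization, scaling on poly-A or hybridization controls, other uses of probe sets, and 2-fold and 8-fold thresholds. Genes lacking a probe set with 1 symbol were not analysed here.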

Additional observations from a re-analysis of the deposited data

How the results depend on the processing

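The counts and medians over Hox genes were recomputed under 8 alternatives, and the counts of genes 4-fold apart also at 2-fold and 8-fold. Of 78 such values 59 moved by no more than 1.5 times (counts) or by less than the probe-set SD (medians) and 19 moved further. Raising the floor to the 75th percentile of all signals (433.9) left 4 Hox genes above it in ALCAM+ cells, 5 in Sca-1+ cells and 3 in double-negative cells, and 0 genes 4-fold apart in any comparison; with the 25th percentile (21.1) 24 lay above it in Sca-1+ and 25 in double-negative cells, and Hoxb3 joined Hoxb2, for 2 genes apart between ALCAM+ and double-negative cells. At 2-fold 2 and 3 genes were apart for ALCAM+ and for Sca-1+ against double-negative cells, and at 8-fold 0 in each comparison. Under either control scaling Hoxd8 passed 4-fold for Sca-1+ against double-negative cells, for 2 genes. The median of ALCAM+ against Sca-1+ cells, 0.29, became -0.27 with the 75th percentile floor and -0.52 and -0.45 under the poly-A and hybridization scalings, where all genes had -0.78 and -0.72. Quantile normalization made the other Hoxd8 probe set the brightest, with -0.89 for ALCAM+ against Sca-1+ cells. Hoxb2, Hoxd8 and Hoxd9 changed sign under none of these in the comparisons where they were 4-fold apart. For the floors this was fixed, since a common floor can shrink a difference but not reverse it. Hoxb2 and Hoxd9 have 1 probe set, so the other uses of probe sets returned the same values. Only the scalings, and for Hoxd8 also the choice of probe set, could have changed a sign. Hoxb3 was 0.01 above double-negative cells with probe sets averaged. No paired analysis was possible because each population has 1 array; none can be left out. Most Hox signals are dim, 13 of 16 with a mean below 433.9, so values near 75.4 carry little information.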

Other observations

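Of 27 other homeobox and limb identity genes with a probe set 23 were measured. For ALCAM+ against double-negative cells 1 was at least 4-fold higher and 1 lower, against 2.01% and 2.67% of all measured genes, and their median on the log2 scale was 0.00. Of the same 23 genes, 5 were higher by 4-fold or more in Sca-1+ than in double-negative cells and 0 lower, against 5.46% and 4.71% of all measured genes. Meox2, a mesodermal homeobox gene, had 78.4 in ALCAM+, 5061 in Sca-1+ and 606 in double-negative cells. Prrx1, a marker of limb mesenchyme, had 2468, 11002 and 1481, and its relative Prrx2 had 113, 3301 and 340.4. Tbx4, which specifies the hind limb, had 43.7, 1008 and 119.9, and Tbx5, its forelimb counterpart, 13.3, 218 and 66.1. Pitx1, another hind limb gene, was above the floor in all 3 populations, at 286, 462 and 439.5.

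Irx5 and Dlx5 were highest in ALCAM+ cells. Irx5 had 2490 in ALCAM+ cells, against 141 in Sca-1+ and 197.5 in double-negative cells, or 12.6-fold above double-negative cells. Dlx5, a regulator of osteoblasts, had 804, 190 and 430, which was 4.24-fold higher in ALCAM+ than in Sca-1+ cells. Between ALCAM+ and Sca-1+ cells 2 of the 23 measured genes were at least 4-fold higher and 6 lower, against 3.99% and 5.86% of all measured genes.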
